A study of Homo sapiens with 5 samples.

Results

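CGI-1746 was added to cells that also received LU-102, and the resulting transcript levels were set against those of cells given LU-102 alone. Both libraries came from MDA-MB-231, a human breast cancer line with mesenchymal features, after 4 h of treatment. They are 2 of 5 libraries, the others being mock, CGI-1746 alone and bortezomib, all from MDA-MB-231 at 4 h with 1 library per condition. Doses are not given in the labels. CGI-1746 is an inhibitor of the kinase BTK, and the title of the study names it as an allosteric inhibitor of the proteasome. LU-102 blocks the trypsin-like sites of the proteasome and bortezomib mainly its chymotrypsin-like sites. Genes were compared where the level reached 1 in one or both libraries, which left 4193 of the 4202 genes in the deposited table. The lowest sum of the 5 levels of a gene in that table was 5.04. Genes of low level may thus have been left out before it was deposited, and shares are of the genes it holds.

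The proteasome is the protease that degrades ubiquitin-tagged proteins in the cytosol and nucleus. When its capacity falls short, misfolded proteins gather and occupy the HSP70 and HSP90 chaperones, which frees the transcription factor HSF1 to bind heat shock elements and switch on chaperone genes. Parallel programmes are the unfolded protein response of the endoplasmic reticulum, the ATF4 branch of the integrated stress response, the antioxidant factor NRF2 and the metal-sensing factor MTF1, which drives the metallothioneins.

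Upstream stretches are shown for 5 heat shock genes and 2 metallothioneins among the 15 highest protein-coding genes that reached a level of 5, chosen because they carry letters of the elements through which HSF1 and MTF1 are known to act. Genes of other programmes that stood as high, among them HMOX1, DDIT4, IFIT2 and TXNIP, are not shown. Each is the 250 bases before an annotated start in RefSeq (GRCh38.p14), read 5′ to 3′ on the strand of the gene. A gene can have several annotated starts. For DNAJB1 and HSP90AA1 the start used lies inside the annotated span of the gene. Capitals mark GAANNTTC, a pair of heat shock units facing each other, in the first 5, and TGCACNC or TGCGCNC on either strand, the core of the metal response element, in the metallothioneins MT1X and MT2A. The windows lie at chr6:31815293-31815542 (plus strand) for HSPA1A, chr6:31827488-31827737 (plus) for HSPA1B, chr1:161524290-161524539 (plus) for HSPA6, chr19:14518398-14518647 (minus) for DNAJB1, chr14:102087045-102087294 (minus) for HSP90AA1, chr16:56682220-56682469 (plus) for MT1X and chr16:56608334-56608583 (plus) for MT2A.
HSPA1A: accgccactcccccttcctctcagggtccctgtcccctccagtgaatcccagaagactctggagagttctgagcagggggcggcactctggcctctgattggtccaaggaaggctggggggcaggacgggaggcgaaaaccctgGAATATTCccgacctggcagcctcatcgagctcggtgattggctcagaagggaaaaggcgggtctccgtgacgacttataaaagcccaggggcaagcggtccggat
HSPA1B: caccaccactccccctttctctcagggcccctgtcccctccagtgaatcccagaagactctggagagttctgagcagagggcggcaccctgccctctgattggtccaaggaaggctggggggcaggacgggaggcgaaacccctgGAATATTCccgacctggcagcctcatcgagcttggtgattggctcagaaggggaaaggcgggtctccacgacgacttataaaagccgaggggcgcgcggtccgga
HSPA6: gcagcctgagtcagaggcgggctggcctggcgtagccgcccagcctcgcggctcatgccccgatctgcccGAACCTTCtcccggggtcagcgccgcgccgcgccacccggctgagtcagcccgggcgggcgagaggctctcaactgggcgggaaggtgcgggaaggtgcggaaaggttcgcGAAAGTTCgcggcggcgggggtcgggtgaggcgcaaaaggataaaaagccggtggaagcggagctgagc
DNAJB1: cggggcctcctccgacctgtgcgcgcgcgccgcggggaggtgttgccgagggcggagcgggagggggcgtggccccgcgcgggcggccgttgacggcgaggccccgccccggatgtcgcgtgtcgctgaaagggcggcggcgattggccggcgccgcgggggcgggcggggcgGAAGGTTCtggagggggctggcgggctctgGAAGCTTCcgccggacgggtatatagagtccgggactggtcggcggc
HSP90AA1: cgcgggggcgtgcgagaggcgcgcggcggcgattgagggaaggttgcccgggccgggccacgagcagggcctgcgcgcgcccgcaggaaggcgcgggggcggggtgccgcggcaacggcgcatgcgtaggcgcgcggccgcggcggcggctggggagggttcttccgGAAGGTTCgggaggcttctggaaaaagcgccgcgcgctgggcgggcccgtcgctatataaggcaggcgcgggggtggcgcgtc
MT1X: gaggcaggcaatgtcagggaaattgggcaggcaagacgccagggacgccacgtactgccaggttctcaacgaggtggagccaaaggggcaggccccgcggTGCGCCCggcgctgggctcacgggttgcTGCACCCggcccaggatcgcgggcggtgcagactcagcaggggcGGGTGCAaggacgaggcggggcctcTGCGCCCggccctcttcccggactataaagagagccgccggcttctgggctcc
MT2A: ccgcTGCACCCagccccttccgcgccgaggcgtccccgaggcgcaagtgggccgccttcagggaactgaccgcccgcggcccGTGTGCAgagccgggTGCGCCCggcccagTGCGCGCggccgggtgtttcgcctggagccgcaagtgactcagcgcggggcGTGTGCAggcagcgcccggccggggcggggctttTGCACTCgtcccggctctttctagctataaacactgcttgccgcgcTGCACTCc

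HSPA1A and HSPA1B are neighbouring copies with near-identical products, and their upstream windows matched at 235 of 250 positions. The capitals begin 106 bases before the start in HSPA1A and 105 in HSPA1B. HSPA6 and DNAJB1 each held 2 matches, the nearest 69 and 47 bases before the start. MT1X held 4 metal response matches and MT2A held 7. GAANNTTC was present in 5.78% of all 35116 RefSeq windows of the same length, and upstream of 7.05% of the 27305 genes that these windows cover. Among genes with a window, it was found in 5.34% of the 3333 genes compared and in 16 of 45 cytosolic chaperone genes. It was found in 14 of 80 genes that were higher by 25% or more and in 0 of 16 that were lower by that factor. Those 14 include HSPA1A, HSPA1B, HSPA6, HSPA8, HSPD1, DNAJA1, DNAJB1 and HSP90AA1, which the chaperone count holds too. Both sets were picked by the ratio itself, the lower set is small, and the difference was not tested. The metal response letters are common, in 24.8% of all windows, upstream of 28.5% of all genes with a window and of 41.2% of the genes compared. They were found upstream of 34 of the 80 higher genes and of 1 of the 16 lower ones. A match is a description of these letters and not evidence of binding.

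Levels are the deposited signal, whose scale is not stated, and each comparison is given as the log2 ratio of (level + 1), which understates the difference of genes at low levels. Because each condition was sequenced from 1 library, replicate error is unknown, and no test across genes was run. "Higher" and "lower" therefore describe these libraries, and in bulk RNA fewer cells with a transcript and less of it per cell cannot be told apart. On this scale 6 genes were at least 2-fold higher with CGI-1746 + LU-102 than with LU-102 (0.143% of those compared), and 0 were at least 2-fold lower (0%). At 1.5-fold, 22 were higher (0.525%) and 8 lower (0.191%). Past 25%, meaning higher by 25% or more or lower by the same factor, 126 were higher (3.01%) and 41 lower (0.978%). The median over all genes was 0.08, with quartiles of 0.02 and 0.15 and a range from -0.84 to 1.82.

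That small upward shift depends on the scaling. Scaling by the median of ratios moved the all-gene median to -0.0029 and gave 16 genes higher and 12 lower at 1.5-fold, and 56 higher and 74 lower past 25%. Scaling by the sum over protein-coding genes gave a median of -0.03, with 14 higher and 15 lower at 1.5-fold, and 40 higher and 95 lower past 25%. With a pseudocount of 0.1 there were 303 higher and 65 lower past 25%, with a pseudocount of 5 there were 36 and 6, and with a minimum level of 5 there were 72 and 14. Groups of genes are therefore described by their distance from the all-gene median. Of all genes, 50% lay above that median, and past 25% there were 3.01% higher and 0.978% lower. Counts of list members are to be read beside these shares. With a pseudocount of 5, only HSPA1A and HSPA1B were past 2-fold. The 2-fold boundary at a pseudocount of 1 fell between SNORA67 at 1.05 and DNAJB1 at 0.99.

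**Figure D1:**
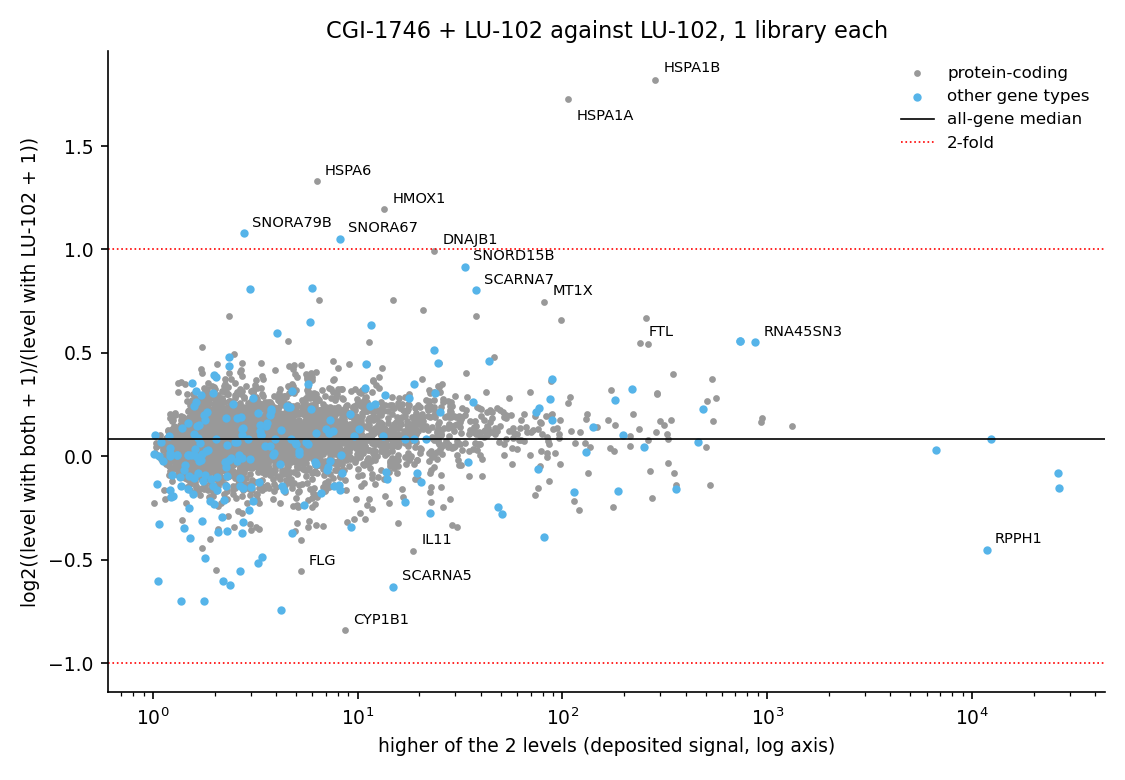
Log2 ratio of CGI-1746 + LU-102 to LU-102 (vertical axis, pseudocount of 1) against the higher of the 2 levels (log axis), with 1 point per gene. HSPA1B and HSPA1A stand apart at the top at high levels, CYP1B1 is lowest at -0.84, and the other gene types, many of them short RNAs, spread widely.

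The inducible HSP70 genes were the highest genes of the comparison. HSPA1B and HSPA1A code for the main stress-induced cytosolic HSP70, which refolds damaged proteins. HSPA1B had a level of 79.7 with LU-102 and 284 with CGI-1746 + LU-102, a ratio of 3.56 and a log2 ratio of 1.82. Its level was 62.2 in mock, 136 with CGI-1746 alone and 99.5 with bortezomib, so the combination was the highest of the 5 libraries. HSPA1A had 31.6 with LU-102 and 107 with both (log2 ratio 1.73), against 24.0 in mock, 52.7 with CGI-1746 and 38 with bortezomib. The order of the 5 libraries was the same for both genes, which share much of their sequence, so that reads of one can be counted for the other. HSPA6, a strictly stress-induced HSP70 on chromosome 1, had 1.91 with LU-102 and 6.30 with both (log2 ratio 1.33), against 1.43 in mock, 2.92 with CGI-1746 and 4.44 with bortezomib. Taking the gene as a single exon, these levels correspond to about 77 and 252 reads, and the ratio of 3.30 has a 95% counting interval of 2.54 to 4.30.

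The other cytosolic chaperones stood above the all-gene median with far smaller differences. DNAJB1, the HSP40 that delivers substrates to HSP70, had 11.4 with LU-102 and 23.7 with both (log2 ratio 0.99), against 10.6 in mock, 15.1 with CGI-1746 and 4.56 with bortezomib. HSP90AA1, the inducible HSP90, had 23.3 and 37.9 (0.68), against 26.7 in mock, 31.5 with CGI-1746 and 9.33 with bortezomib. HSPA8, the constitutive HSP70, was abundant and had 416 and 539 (0.37), against 429 in mock, 480 with CGI-1746 and 43.8 with bortezomib. In each of these 3 genes the combination was the highest library and bortezomib the lowest. Levels with bortezomib were low for many genes, since 2231 genes reached a level of 1 there against 4161 in mock. A low level with bortezomib is thus not particular to the genes named here.

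Over 5 lists of cytosolic chaperones and their partners, 48 of 51 genes lay above the all-gene median, against 50% of all genes. Past 25%, 13 were higher and 0 lower, against 3.01% and 0.978% of all genes. Their median log2 ratio was 0.24. The inducible HSP70 list had a median of 1.73 over 3 genes. Medians were 0.28 for the other HSP70 and HSP110 genes (6 genes), 0.23 for the HSP40 genes (13 genes), 0.24 for HSP90, HSP60, TRiC and small heat shock genes (13 genes) and 0.20 for co-chaperones and HSP regulators (16 genes). HSPH1, a nucleotide exchange factor of HSP70, was at 0.37, as was BAG3, which links HSP70 to autophagy. HSP90AB1, the constitutive HSP90, was at 0.31, and DNAJA1, another HSP40, at 0.43. HSPA9 of the mitochondria was at 0.24 and HSPA14 of the ribosome at 0.07, just under the all-gene median. The HSP40 median lay 0.14 above all genes, and 0.32 above them with a minimum level of 5, which left 3 of the 13 genes. With CGI-1746 alone against mock the same 51 genes had a median of 0.04, where the all-gene median was -0.02.

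**Figure D2:**
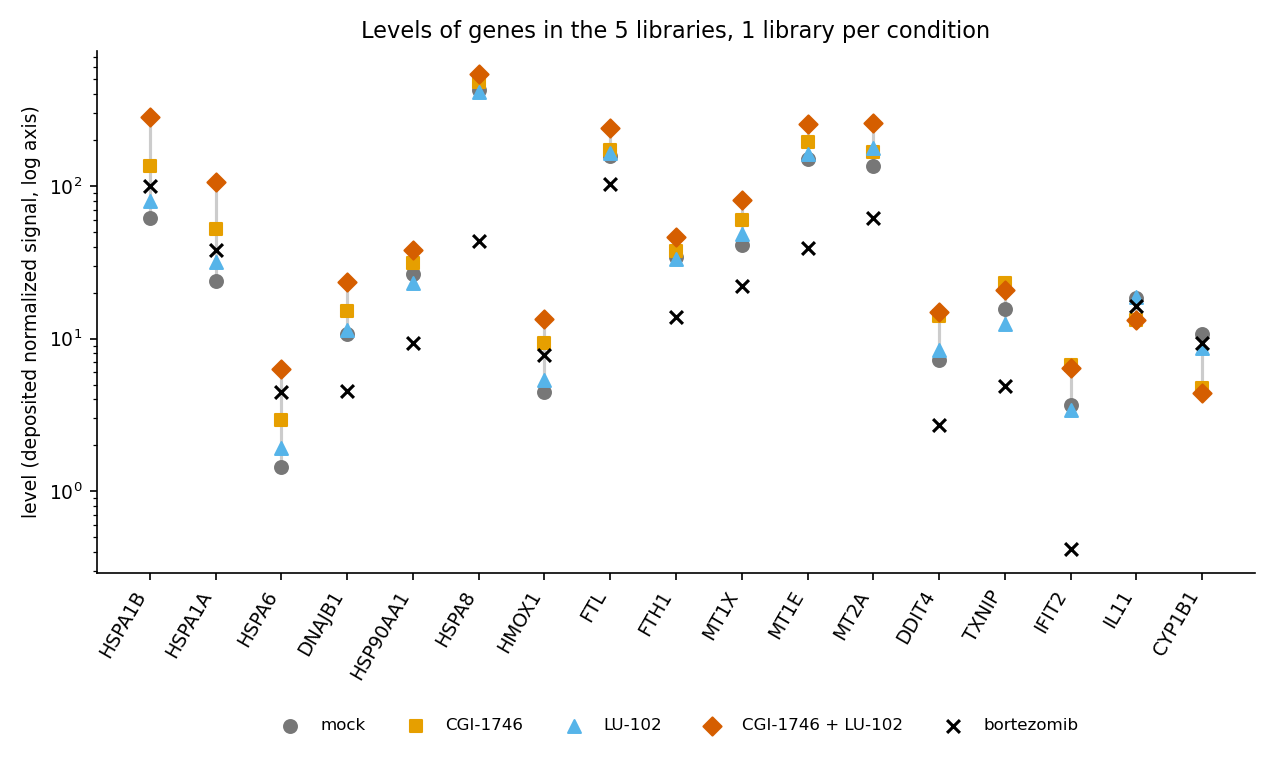
Levels of 17 genes (deposited signal, log axis) in the 5 libraries, 1 point per library, with a grey line over the range of the 4 libraries without bortezomib. The combination is the highest of those 4 for the HSP70 genes, DNAJB1, HMOX1, the ferritins and the metallothioneins, and near CGI-1746 alone for DDIT4, IFIT2, TXNIP, IL11 and CYP1B1.

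Genes of the endoplasmic reticulum lay a little above the rest. Each of 27 chaperone and stress genes of this compartment lay above the all-gene median, against 50% of all genes. Past 25%, 5 of them were higher, against 3.01% of all genes, and the median was 0.22. DNAJB9, a co-chaperone of BiP, was at 0.56 with levels of 2.78 and 4.56, against 3.05 in mock. SDF2L1, another BiP partner, was at 0.49 with 1.47 and 2.47, against 1.55 in mock. Its levels correspond to roughly 22 and 36 reads, and the approximate 95% counting interval of the ratio, 0.942 to 2.93, included 1. HSPA5, which is BiP itself, had 137 with LU-102 and 172 with both (0.32), against 167 in mock, 168 with CGI-1746 and 45.5 with bortezomib. The combination was thus close to mock for HSPA5, and the LU-102 library was the lowest after bortezomib. XBP1, the transcription factor of the IRE1 branch, was at 0.45, with 6.39 and 9.07, against 7.28 in mock. The ER stress element was found upstream of 6 of 25 of these genes (CALR, CANX, HSP90B1, HSPA5, PDIA6 and XBP1). It was found upstream of 0.27% of the 3333 genes compared that had a window, and of 0.0916% of all RefSeq genes with one.

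Targets of ATF4 and CHOP were mixed. Their median of 0.12 over 25 genes was near that of all genes. Above the all-gene median lay 16, against 50% of all genes, and 4 were higher past 25%, against 3.01%. DDIT4, an inhibitor of mTORC1, had 8.42 with LU-102 and 14.9 with both (0.75), against 7.28 in mock, 14.1 with CGI-1746 and 2.70 with bortezomib. PPP1R15A, which directs dephosphorylation of eIF2α, was at 0.40, and the mRNA of ATF4 itself at 0.37. SLC7A11, the cystine transporter, was at -0.11.

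Among NRF2 targets, HMOX1 and the ferritins stood out. HMOX1, the heme oxygenase that releases iron from heme, had 5.33 with LU-102 and 13.5 with both (1.19), against 4.44 in mock, 9.30 with CGI-1746 and 7.80 with bortezomib. FTL, the ferritin light chain that stores iron, had 164 and 240 (0.55), with 157 in mock, 173 with CGI-1746 and 103 with bortezomib. FTH1, the heavy chain, had 33.1 and 46.6 (0.48), with 34.3 in mock, 37.7 with CGI-1746 and 13.8 with bortezomib. The ferritin genes have many processed pseudogenes that can share their reads. NQO1, a quinone reductase and a common NRF2 marker, was at 0.19. The list as a whole had a median of 0.16 over 22 genes. Above the all-gene median lay 16, against 50% of all genes, and 4 were higher past 25%, against 3.01%.

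The metallothioneins MT1X, MT1E and MT2A, which bind zinc and copper, were higher as well. MT1X had 48.2 with LU-102 and 81.6 with both (0.75), against 41.1 in mock, 59.8 with CGI-1746 and 22 with bortezomib. MT1E had 161 and 257 (0.67), against 150 in mock, 196 with CGI-1746 and 39.6 with bortezomib. MT2A had 179 and 261 (0.54), against 135 in mock, 168 with CGI-1746 and 62.1 with bortezomib. In all of them the combination was the highest library. MT1F, a further copy, was at -0.02 with levels of 5.08 and 4.97. Metallothionein copies are alike in sequence, and how the authors assigned shared reads is not given in the sources used here. SLC30A1, a zinc exporter and an MTF1 target, had 34.0 and 42.3 (0.31), against 41.6 in mock, 41.9 with CGI-1746 and 28.1 with bortezomib. For SLC30A1 the combination was thus close to mock, and the LU-102 library was the lowest after bortezomib. The 8 metal response genes had a median of 0.21, with 6 above the all-gene median, against 50% of all genes. That median lay 0.12 above all genes, and 0.43 above them with a minimum level of 5, which left 5 of the 8 genes.

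The proteasome genes themselves differed little. Of 30 subunit genes of the core and the cap, 0 were past 25% in either direction, and the median was 0.13, with a range from -0.09 to 0.30. That median lay 0.05 above all genes, and 0.03 below them when only genes reaching a level of 5 were kept (13 genes). PSMB5, the chymotrypsin-like subunit, had 6.91 with LU-102 and 6.66 with both (-0.05). PSMB6, the caspase-like subunit, had 13.6 and 16.4 (0.25). POMP, the chaperone of core assembly, was at 0.31, and PSMG3, another assembly factor, was the 1 gene of 13 activators, assembly factors and regulators past 25%, at 0.39. The receptor SQSTM1, which takes ubiquitinated cargo to autophagy, was at 0.36.

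**Figure D3:**
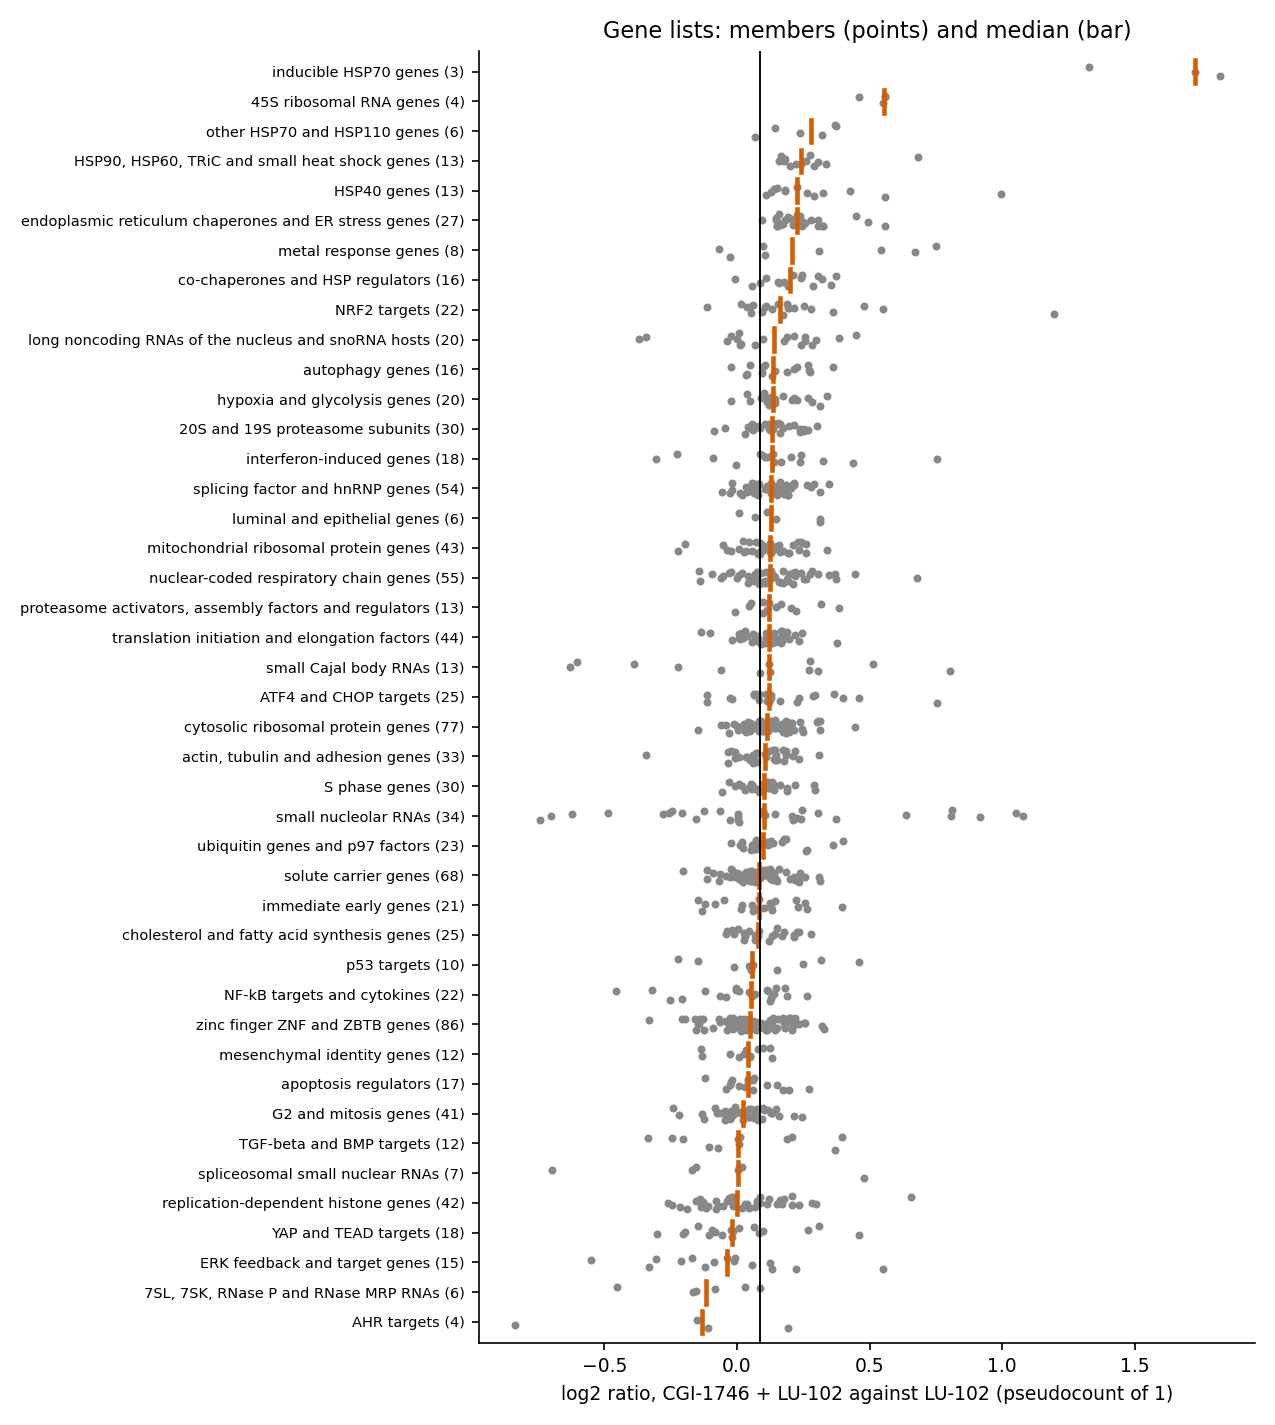
Log2 ratio of CGI-1746 + LU-102 to LU-102 for the members of each gene list with at least 3 genes compared (points, shifted vertically only to separate them), the list median (orange bar) and the all-gene median (black line at 0.08), with the number of genes in brackets. The chaperone lists lie to the right of the line, and the AHR and ERK lists to its left.

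CYP1B1 was the lowest gene. It codes for a cytochrome P450 whose transcription is driven by the aryl hydrocarbon receptor. Its level was 8.64 with LU-102 and 4.39 with both (-0.84), against 10.7 in mock, 4.76 with CGI-1746 and 9.31 with bortezomib. Both libraries with CGI-1746 lay below all 3 without it. The other AHR targets compared were TIPARP at -0.11 and NQO1 at 0.19, with the receptor AHR at -0.15, so the list held 1 gene of 4 above the all-gene median. Its median lay 0.22 below all genes and 0.09 below with a pseudocount of 5. With a minimum level of 5 it lay 0.43 below, but only 2 genes of the list were left.

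Several secreted and signalling genes were lower by smaller amounts. IL11, a cytokine of the IL-6 family, had 18.7 with LU-102 and 13.3 with both (-0.46), against 18.5 in mock, 13.3 with CGI-1746 and 16.4 with bortezomib. DUSP6, a phosphatase that feeds back on ERK, had 9.61 and 7.59 (-0.30), against 12.4 in mock, 9.31 with CGI-1746 and 4.78 with bortezomib. SPRY1, another inhibitor of receptor signalling to ERK, had 2.03 and 1.07 (-0.55). DUSP5, a nuclear ERK phosphatase, went the other way, with 7.40 and 11.3 (0.55). Over 15 ERK feedback and target genes the median was -0.04, which is 0.12 below all genes. Above the all-gene median lay 4, against 50% of all genes. Past 25%, 1 was higher and 2 lower, against 3.01% and 0.978% of all genes. ENC1, an actin-associated protein, had 30.4 and 23.8 (-0.34), PHLDA1 29 and 22.9 (-0.33), and the BMP antagonist NOG 6.79 and 5.17 (-0.34). The YAP and TEAD targets had a median of -0.02 over 18 genes, with 4 above the all-gene median. AJUBA was at -0.30 and CCN2, a matricellular protein, at -0.20, while ANKRD1 and CCN1, which are textbook targets too, were at 0.31 and 0.27.

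FLG, the filaggrin gene, and GPS2, a subunit of a corepressor complex, were at -0.55 and -0.41. With CGI-1746 alone they were at 0.00 and 0.20. Genes of G2 and mitosis had a median of 0.02 over 41 genes, 10 of them above the all-gene median, and 0 were past 25%. Interferon-induced genes had a median of 0.13 over 18 genes. IFIT2, an RNA-binding antiviral protein, had 3.42 and 6.45 (0.75), against 3.67 in mock, 6.68 with CGI-1746 and 0.417 with bortezomib, and IFIT3, its partner, was at 0.44. TXNIP, the thioredoxin-binding protein, had 12.4 and 20.9 (0.71), against 15.8 in mock, 23.3 with CGI-1746 and 4.89 with bortezomib. In these IFIT2 and TXNIP levels, the combination was lower than CGI-1746 alone.

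Replication-dependent histone genes had a median of 0.00 over 42 genes, 15 of them above the all-gene median. H4C11 was the 1 member past 25%, with 61.7 and 97.9 (0.66), against 74.9 in mock, 63.5 with CGI-1746 and 11.4 with bortezomib. Histone genes of one class have closely similar sequences, so the share of reads each copy received is uncertain. The 45S ribosomal RNA genes, copies of one repeat, had log2 ratios from 0.46 to 0.56. RNA45SN3 had 597 with LU-102 and 876 with both, against 643 in mock, 676 with CGI-1746 and 13832 with bortezomib. Messenger RNAs of the cytosolic ribosomal proteins had a median of 0.11 over 77 genes.

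For single-exon short RNA genes the reads could be recovered from the levels, which gave counting intervals for 61 genes. The interval of the ratio left out 1 for 16 of them, 9 higher and 7 lower, and 26 had fewer than 20 reads in both libraries. The split depends on the scaling: against the ratio that median-of-ratios scaling takes as no difference, 1.09, it was 4 higher (SNORD15B, SCARNA7, SCARNA2 and TERC) and 12 lower, with RMRP and RN7SK on the lower side. Protein-coding sum scaling gave the same counts. These intervals cover counting error only, since fragments of a library are not independent cultures. The small nucleolar RNAs guide chemical modification of ribosomal RNA, and the small Cajal body RNAs that of spliceosomal RNA. SNORD15B had 43 reads with LU-102 and 83 with both, a ratio of 1.94 (1.33 to 2.87). SCARNA7 had 119 and 211, a ratio of 1.78 (1.42 to 2.25). TERC, the telomerase RNA, had 1334 and 1667, a ratio of 1.26 (1.17 to 1.35). In the other direction SCARNA5 had 71 and 44 reads, a ratio of 0.623 (0.418 to 0.920), and SCARNA10 had 457 and 346, a ratio of 0.761 (0.660 to 0.877). RPPH1, the RNA of RNase P, which trims the leader of tRNA precursors, was among the most abundant transcripts at levels of 11783 and 8618, a ratio of 0.731 (0.723 to 0.740). Its level was 7110 in mock, 7265 with CGI-1746 and 1330 with bortezomib. The remaining genes past 2-fold, SNORA79B and SNORA67, rested on 2 against 7 and 8 against 19 reads, and their intervals of 0.670 to 34.7 and 0.998 to 6.30 included 1.

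**Figure D4:**
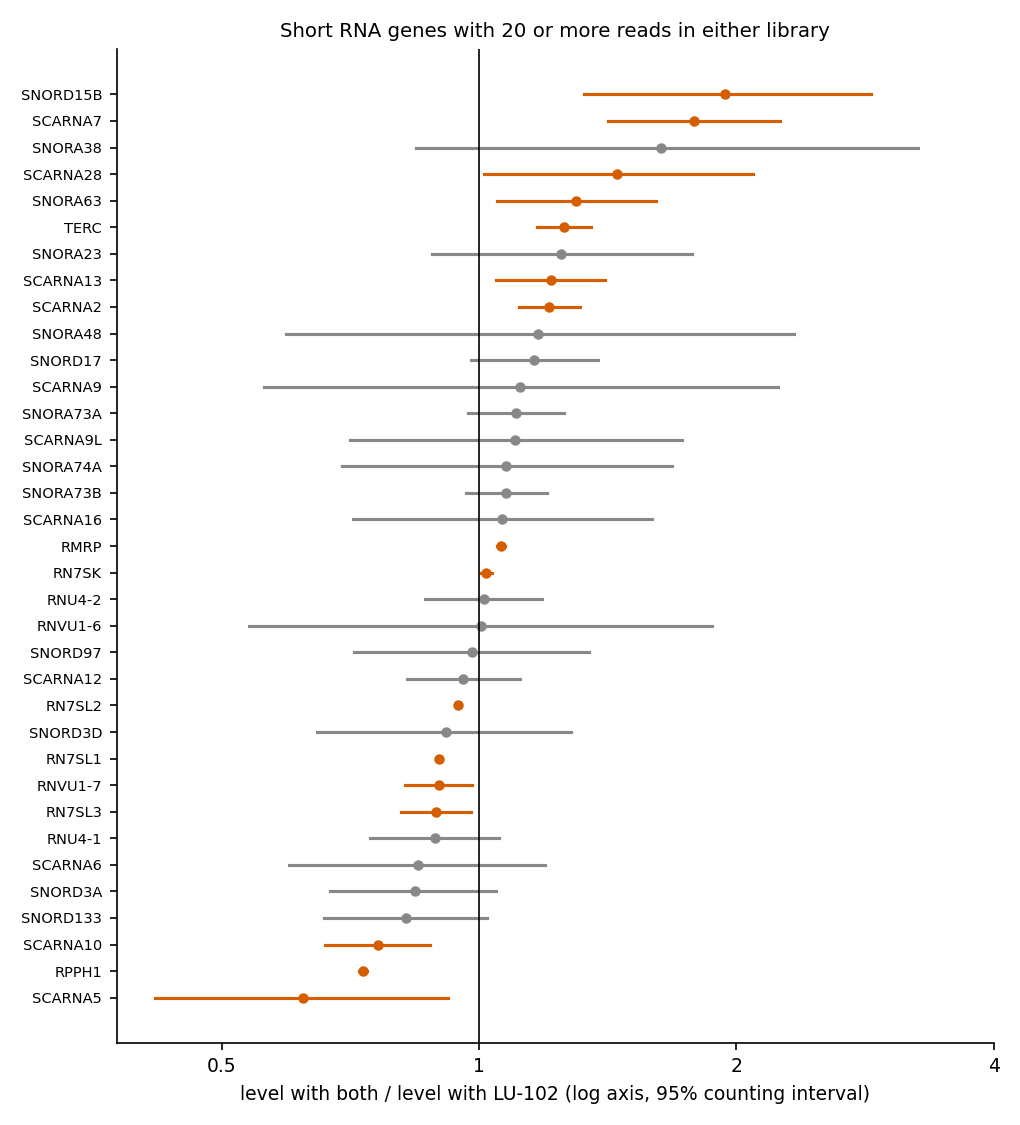
Ratio of the level with CGI-1746 + LU-102 to that with LU-102 (log axis) for short RNA genes with 20 or more reads in either library, with 95% Clopper-Pearson counting intervals. Orange marks genes whose interval leaves out 1, from SNORD15B at 1.94 down to SCARNA5 at 0.623.

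The same inhibitor can be read without LU-102, from CGI-1746 against mock, which shares no library with the comparison above. That comparison held 4186 genes. At 1.5-fold there were 17 higher (0.406%) and 7 lower (0.167%), and past 25% there were 64 higher (1.53%) and 35 lower (0.836%). Of genes compared in both settings, 10 were 1.5-fold or more higher in both, which is 45.5% of the 22 with LU-102 and 62.5% of the 16 without it. They were HSPA1A, HSPA1B, HSPA6, HMOX1, DDIT4, IFIT2, SNORA38, SNORA71D, SNORA79B and SNORA7B. CYP1B1 and SNORA71C were lower in both, 2 of 8 with LU-102 and 2 of 7 without. The small nucleolar RNAs among these rested on few reads, and their intervals with LU-102 included 1. From LU-102 to the combination SNORA38 had 16 and 26 reads, SNORA71D 7 and 14, SNORA7B 3 and 7, SNORA79B 2 and 7, and SNORA71C 10 and 5. Past 25% the overlap was smaller in share. Of genes compared in both settings, 26 were higher in both, 20.6% of the 126 with LU-102 and 41.3% of the 63 without it. Lower in both were 10, which is 24.4% of the 41 with LU-102 and 28.6% of the 35 without it. HSPA1B was at 1.82 with LU-102 and 1.11 without, HSPA1A at 1.73 and 1.11, HSPA6 at 1.33 and 0.69, and DNAJB1 at 0.99 and 0.47. HMOX1 was at 1.19 and 0.92. By contrast DDIT4 was at 0.75 and 0.87, DUSP5 at 0.55 and 0.55, IL11 at -0.46 and -0.45, and CYP1B1 at -0.84 and -1.02. The difference between settings was 0.71 for HSPA1B, 0.64 for HSPA6 and 0.62 for HSPA1A, against a median of 0.10 over all genes. Among protein-coding genes reaching a level of 5 in both pairs it was largest for H4C11, at 0.89, and RANGRF, TCEAL9 and SPANXB1 were each at 0.67. These differences were not tested. Across 4182 genes the log2 ratios had a Pearson correlation of 0.259 and a Spearman correlation of 0.134. Among 1255 protein-coding genes that reached a level of 5 in both pairs these were 0.458 and 0.161. These values run across genes, which are not independent replicates, and both pairs come from one table whose normalization is not stated.

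**Figure D5:**
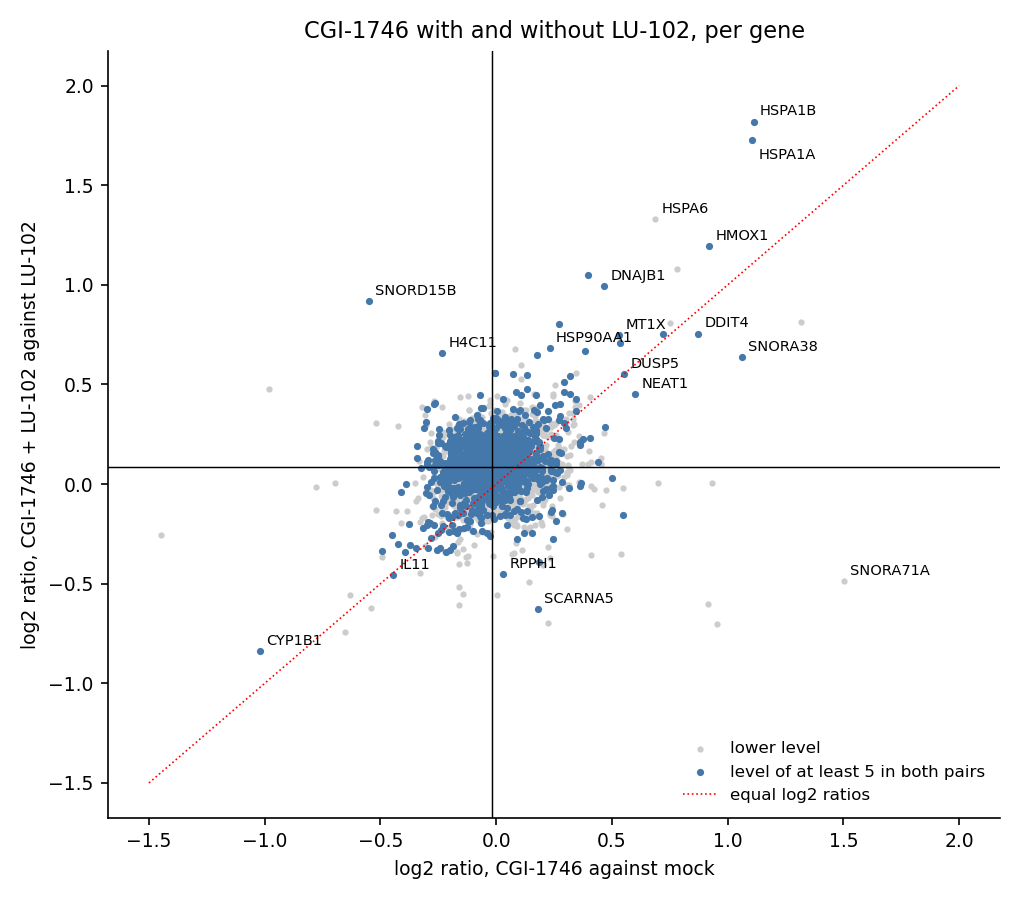
Log2 ratio of CGI-1746 + LU-102 to LU-102 (vertical) against that of CGI-1746 to mock (horizontal), 1 point per gene, with the all-gene medians as black lines and equality as a dotted red line. HSPA1B, HSPA1A, HSPA6 and DNAJB1 lie above the dotted line, and CYP1B1 and IL11 lie close to it at the lower left.

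The mesenchymal markers sought were present, beside some epithelial ones. All 7 mesenchymal markers sought were in the table, with a summed level of 192 with LU-102 and 206 with both, as were 3 of 7 luminal and epithelial markers, at 48.2 and 53.1. Of 8 markers of other cell types sought, 0 were in the table. Genes of low level may have been left out of it, so this absence does not show that they were not expressed. Of a longer list of blood and endothelial genes, CD68, a lysosomal protein abundant in macrophages, was the 1 gene compared, with levels of 7.24 and 8.68 (0.23), and its part in the results was not tested. Each read of a short RNA added 58.5 to the product of level and length in base pairs with LU-102 and 58.8 with both, so that a read weighed nearly the same in these libraries. The 5 most abundant genes made up 65.9% of the summed levels with LU-102 and 61.6% with both, and whether this moved the other levels was not tested. With protein-coding genes in 5 equal bins of length, the median log2 ratio ran from 0.06 to 0.11, and in 5 bins of GC content from 0.08 to 0.10.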

How the data were processed

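Per the labels' protocols, total RNA was extracted from MDA-MB-231 cells and sequenced as paired reads. The authors deposited a table of least squares mean levels per gene and condition, a normalized expression signal. Partek and hg38 are named in the submitters' processing notes. For the aligner, annotation, strand, filter, normalization and versions, the sources used here give nothing. The ratio, p-value and FDR columns of the table were not used.

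Levels were compared as log2((level + 1)/(level + 1)), with a pseudocount of 1, over genes whose level reached 1 in one or both libraries, in Python 3.11.15 with pandas 2.3.3 and scipy 1.17.1. Folds of 2 and 1.5, and a difference of 25%, were counted without a test, since each condition has 1 library. Symbols were matched to RefSeq (4126 directly, 61 by a synonym, 15 not at all). For single-exon short RNAs, the product of level and length fell on steps of 0.5 reads, each library having its own value of a read (29 of 30 genes within 0.1 with LU-102, 30 of 30 with CGI-1746 + LU-102), and the recovered reads gave Clopper-Pearson intervals at 95%. The scripts were tested on simulated data.

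Members and lists were chosen with earlier results of these data known. Genes named were drawn from those past 2-fold and the 15 highest and 15 lowest protein-coding genes among those reaching a level of 5. They were also drawn from the HSP70 lists, PSMB5 and PSMB6, and identity genes. The last source was the up to 4 members of each of 44 lists farthest from the all-gene median among those reaching a level of 2. Not every gene that met these rules is named. MT1F, TIPARP, AHR, ANKRD1, CCN1, RANGRF, TCEAL9, SPANXB1, TERC, RMRP, RN7SK and SCARNA2 were named after their values were seen. So were the genes listed for an overlap, a motif or opposite directions. Alternatives were the pseudocount, the minimum level and the scaling, with an adjustment for GC content, length and level, and the scalings for short RNA intervals, added after the data were seen.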

Additional observations from a re-analysis of the deposited data

Results flagged for a closer look

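CGI-1746 went in opposite directions with and without LU-102, past 25% each way, in 7 genes, mostly short RNAs at low levels. The values below are the log2 ratio with LU-102 less that without it, and the difference was not tested. It was -0.89 for BLID and -0.77 for NT5C, the 2 protein-coding genes. Among short RNAs it was 1.46 for RNU6ATAC, 1.47 for SNORD15B, -1.52 for SCARNA1, -1.66 for SNORA40B and -1.99 for SNORA71A. Apart from SNORD15B, at 43 and 83 reads, these rested on few reads. From LU-102 to the combination RNU6ATAC had 3 and 5, SCARNA1 3 and 1, SNORA40B 3 and 1, and SNORA71A 8 and 5. From mock to CGI-1746 they had 4 and 1, 5 and 12, 1 and 4, and 2 and 10. The interval of the ratio with LU-102 included 1 for each of these 4. SNORD15B was the most abundant, whose level went from 31.7 in mock to 21.4 when CGI-1746 was given alone, and from 17.2 in LU-102 to 33.5 in the combination. The other 6 genes had levels under 5 in these 4 libraries.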

How the results depend on the processing

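Genes 2-fold or more higher numbered 2 with a pseudocount of 5 (HSPA1A and HSPA1B), and genes 2-fold or more lower numbered 3 with a pseudocount of 0.1. Genes 1.5-fold or more higher numbered 39 with a pseudocount of 0.1, 12 with 5 and 14 after protein-coding sum scaling. The all-gene median was -0.0293 after protein-coding sum scaling. Genes 1.5-fold or more lower numbered 19 with a pseudocount of 0.1, 0 with 5, 2 with a minimum level of 5 and 15 after protein-coding sum scaling. HSPA1B ranged from 1.67 to 1.83 over the 7 alternatives, HSPA1A from 1.58 to 1.75, HSPA6 from 0.71 to 1.67, HMOX1 from 0.84 to 1.32, DNAJB1 from 0.81 to 1.05 and CYP1B1 from -0.97 to -0.54. Of 44 lists, 11 changed side of the all-gene median under some alternative, all of them within 0.05 of it. The chaperone, ER, NRF2, metal, AHR and ERK lists were not among them, though the distance of some moved. With a minimum level of 5 it was 0.43 for the metal list, 0.32 for the HSP40 list and -0.43 for the AHR list. Those values rested on the 5, 3 and 2 genes left in these lists. With a pseudocount of 5 it was -0.09 for the AHR list. No paired analysis was possible because each condition has 1 library, and for the same reason no replicate could be left out.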
